A study of Rosa rugosa with 9 samples.

Results

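Roots of Rosa rugosa 'Zizhi', a shrub rose, were compared between plants whose phosphate fertiliser had been partly replaced by humic acid and plants given the whole phosphate dose. The 6 humic acid libraries were pooled, with the groups HA1 and HA2 weighted equally, and set against the 3 control libraries, named CK. These are all 9 libraries of the series, and the comparison ran over 25260 of the 47983 genes in the table, those with enough counts to be tested. One-year-old plants were grown in sand in pots in a greenhouse and received 200 ml of Hoagland's solution per pot each week for 37 weeks. The phosphate source was NH4H2PO4, at 0.092 g in CK, which was 100% of the phosphate. HA1 plants received 0.0552 g of it (60% P) with 0.0368 g of humic acid in place of the other 40%. HA2 plants received 0.0368 g (40% P) with 0.0552 g of humic acid for the other 60%. Both humic acid groups therefore differed from CK in phosphate, in ammonium and in humic acid, and no group received less phosphate without humic acid, so the effects of these 3 changes cannot be told apart. The RNA came from young roots and was selected by its poly(A) tail. The labels number 3 replicates in each group and do not say whether a library came from 1 plant or from several, so the p-values measure the spread between these libraries, which may be partly technical.

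Humic acids are dark mixtures of large organic molecules left by the decay of plant matter, and they bind metal ions and compete with phosphate for soil surfaces. Roots short of phosphate release their PHR transcription factors from SPX proteins, which sense inositol pyrophosphates, and then make more phosphate transporters, secreted acid phosphatases and enzymes that replace phospholipids by galactolipids. Most land plants can also take up phosphate through arbuscular mycorrhizal fungi, which grow as branched arbuscules inside root cortex cells. The plant makes dedicated transporters around the arbuscule and pays the fungus in lipid. Jasmonate, a lipid hormone of defence and wounding, is made from linolenic acid by 13-lipoxygenase, allene oxide synthase, allene oxide cyclase and 12-oxophytodienoate reductase.

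The libraries held 33847262 to 42988605 counts each, with 4.55% to 5.71% of them in the 10 most abundant genes. Levels are given in CPM, counts scaled to a common library size by TMM factors, and 3 counts equal 0.0637 to 0.0903 CPM depending on the library. The first principal component held 43.9% of the variance, and the CK libraries lay at −93.5, −42.3 and −131 on it and the HA1 libraries at 70.4, 68.6 and 67.7. The HA2 libraries lay at 66.3, 39.7 and −45.8, so that HA2 replicate 3 stood among the CK libraries. Values without it are given for the number of genes called, for HA1 against HA2 and for the jasmonate genes. For the other lists its part is shown mainly through the levels of single genes. Of 12 root identity markers tested, 0 rose, 1 fell and 11 did not pass. Genes that mark green tissue fell in 6 of 48 (12.5%) and rose in 0. Over all genes tested, 7.38% fell and 7.63% rose, 15.0% in all, by the test given below. The summed level of the green tissue genes was 152 to 269 CPM in CK, 103 to 132 in HA1 and 67 to 177 in HA2. Their median log2 fold change was −0.66, the lowest of the 44 gene lists used below. Of the 48, 10 were below CK in all 6 humic acid libraries and 0 were above, against 7.25% and 7.55% over all genes tested. The part of the green tissue genes in the results below was not tested.

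Humic acid roots differed from CK roots in 3791 genes, 15.0% of the genes tested, by edgeR's quasi-likelihood test at a Benjamini-Hochberg adjusted p under 0.05. The changes ran both ways: 1927 genes rose (7.63%) and 1864 fell (7.38%). The median log2 fold change was 1.13 among those that rose and −1.14 among those that fell, against −0.02 over all genes tested. In 2300 of the called genes the change was at least 2-fold. For 2389 of the called genes, all 6 humic acid libraries lay outside the range of the 3 CK libraries. Over all genes tested, 7.55% were above CK in all 6 humic acid libraries and 7.25% below, 14.8% in all. The lowest adjusted p was 0.0167, so the calls lie in a narrow band under the threshold. DESeq2 called 6761 genes, 26.8%, and 3790 of them were also called by edgeR.

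**Figure D1:**
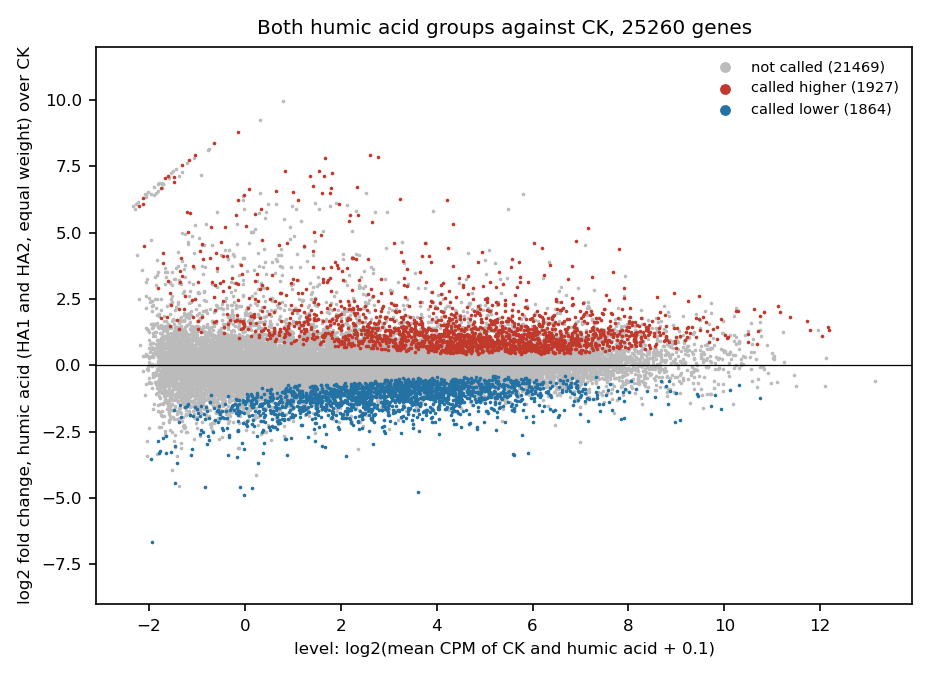
Log2 fold change of both humic acid groups against CK (vertical axis) by mean level in log2 CPM (horizontal axis) for the 25260 genes tested, with the 1927 genes called higher and the 1864 called lower in colour. The called genes lie on both sides of 0, at nearly equal numbers, and cover low and high levels.

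The calls rested on few libraries. Leaving out CK replicate 1, CK replicate 3 or HA1 replicate 2 gave 0 calls with edgeR, with lowest adjusted p of 0.0941, 0.0507 and 0.0557 and with 6370, 6019 and 7675 genes at an unadjusted p under 0.05. The corresponding DESeq2 counts were 3545, 3075 and 5268. Leaving out HA2 replicate 1 gave 672 edgeR calls, and leaving out HA2 replicate 2 gave 821. Leaving out HA1 replicate 1 gave 1959 calls, and leaving out HA1 replicate 3 gave 1719. Without HA2 replicate 3 the count was 6528, and without CK replicate 2 it was 5291. All 3791 genes kept the sign of their change in each of the 9 fits. Of them, 605 were called by edgeR in all 6 fits that made any call, and 2372 were called by DESeq2 in all 9. Scaling by total count instead of TMM moved the median of all genes to −0.32 and turned the split into 1241 higher and 4828 lower, a higher share of 20.4% against 50.8%, so directions below are relative to the typical gene.

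**Figure D2:**
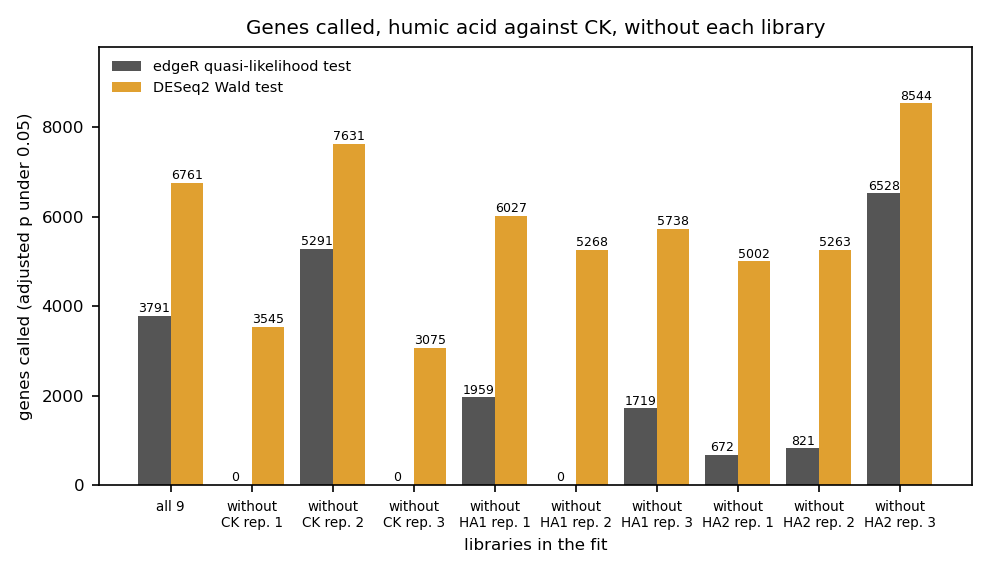
Number of genes called at an adjusted p under 0.05 (vertical axis) with all 9 libraries and with each library left out in turn (horizontal axis), with grey bars for edgeR and orange bars for DESeq2. The edgeR count is 0 when CK replicate 1, CK replicate 3 or HA1 replicate 2 is absent and reaches 6528 without HA2 replicate 3, while the DESeq2 count ranges from 3075 to 8544.

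The changes were mostly larger in HA1 than in HA2. Among the 1927 genes that rose, HA1 had the higher mean in 1567 (81.3%), and among the 1864 that fell, HA1 had the lower mean in 1702 (91.3%). Over all 25260 genes HA1 was above HA2 in 47.5% and below it in 52.4%. Without HA2 replicate 3 the shares became 72.3% of the genes that rose and 84.4% of those that fell. Each HA1 library was above all 3 CK libraries in 98.4% to 99.9% of the genes that rose, HA2 replicates 1 and 2 were in 99.6% and 95.8%, and HA2 replicate 3 was in 72.3%. Of the genes that fell, HA2 replicate 3 was below all CK libraries in 65.1%, against 91.3% to 99.6% for the other 5. In the direct test of HA2 against HA1, edgeR called 0 genes, with a lowest adjusted p of 0.176 and 4069 genes at an unadjusted p under 0.05, and DESeq2 called 1141. The sets of genes were chosen with these same libraries, so the shares are descriptions and carry no test.

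The arbuscular mycorrhiza list had the highest median log2 fold change of the 44 gene lists. Of 14 tested, 8 rose, 0 fell and 6 did not pass, and their median log2 fold change was 4.31, against −0.02 for all genes, or 2.89 when a gene with 0 counts in CK is set at the lower bound of its fold. Leaving out 1 library at a time moved the median between 3.61 and 4.54, and under total count scaling it was 4.04 with 7 that rose. A copy of low affinity inorganic phosphate transporter 4 (Rru01G053270), whose namesake in Medicago truncatula takes up phosphate at arbuscules, had 7, 0 and 0 counts in CK. Its counts were 1500, 261 and 12 for HA1 and 645, 24 and 764 for HA2. All 6 humic acid libraries were above CK, though HA1 replicate 3 and HA2 replicate 2 were close to it. The log2 fold change was 7.85 ± 1.98 (SE), with an adjusted p of 0.0355 by the quasi-likelihood test of edgeR (Benjamini-Hochberg). The size of the fold rests on the 7 counts of CK replicate 1, since the other CK libraries held 0: leaving out 1 library moved it between 6.97 and 11.98, the latter without CK replicate 1 and so a fitted value against 0 counts, which is no bound. Its neighbour by number (Rru01G053280) had 3, 0 and 0 counts in CK, against 459, 101 and 8 for HA1 and 251, 9 and 648 for HA2, and was also called higher. How reads shared by such copies were counted is not given in the sources used here, so the counts of each copy are uncertain.

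The genes that feed lipid to the fungus were described gene by gene after their values were seen. RAM2, the glycerol-3-phosphate acyltransferase that makes the exported lipid, was called higher in 3 copies, of which 2 had few or no counts in CK and uneven libraries like the transporter. One (Rru04G055040) had 2, 0 and 2 counts in CK, against 113, 41 and 2 for HA1 and 31, 8 and 360 for HA2, so HA1 replicate 3 was no higher than CK. Another (Rru02G075040) had 2, 0 and 0 in CK, against 91, 14 and 3 for HA1 and 33, 6 and 241 for HA2. The last copy (Rru06G015850) had 77, 64 and 62 counts in CK, against 290, 173 and 130 for HA1 and 88, 83 and 78 for HA2. It did not share that pattern, since HA2 replicate 3 was its lowest humic acid library, and it rose by 1.06 ± 0.25 on the log2 scale. The ABC transporters STR and STR2, which export the lipid, did not pass. STR (Rru07G001290) had 12, 0 and 0 counts in CK, against 390, 97 and 5 for HA1 and 131, 9 and 950 for HA2, at an edgeR adjusted p of 0.0629 (Benjamini-Hochberg). STR2 (Rru07G039500) had 4, 0 and 0 counts in CK, against 147, 41 and 2 for HA1 and 70, 0 and 357 for HA2. A further STR gene (Rru03G038810) had no count in CK and in HA1 replicate 3 and HA2 replicate 2, against 8 to 108 in the other 4 libraries.

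VAPYRIN (Rru03G042370), a protein needed for the fungus to enter root cells, rose more evenly. It was at 0.446, 0.369 and 0.4 CPM in CK, against 2.97, 2.98 and 2.96 for HA1 and 2.67, 1.14 and 3.53 for HA2, with no overlap. The log2 fold change was 2.72 ± 0.39 and the adjusted p 0.0181 by edgeR's quasi-likelihood test (Benjamini-Hochberg). Ammonium transporter 3 member 1 (Rru03G031940), of a family that includes ammonium transporters of arbuscules, was at 1.63, 1.16 and 2.45 CPM in CK, against 27.3, 11.6 and 17.5 for HA1 and 7.8, 4.1 and 1.9 for HA2. HA2 replicate 3, among the highest libraries for the phosphate transporter 4 copies, lay within the CK range for this gene. Genes described as the GRAS family protein RAM1, looked at afterwards, did not show such a rise in all humic acid libraries. One (Rru02G080350) had 16, 0 and 8 counts in CK, against 35, 11 and 0 for HA1 and 15, 6 and 152 for HA2. The other (Rru06G024170) had 24, 3 and 30 in CK, against 15, 2 and 7 for HA1 and 15, 0 and 22 for HA2. The summed level of the 14 genes was 4.45 to 6.98 CPM in CK, 31 to 110 in HA1 and 11.9 to 97.3 in HA2. In bulk RNA, more cells that express a gene and more of its RNA per cell cannot be told apart.

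The 12 genes with the largest increases fell into 2 patterns across libraries. They were picked by fold change among called genes whose groups did not overlap, so these values describe them and test nothing further. A set of 8 were near 0 in CK and, like phosphate transporter 4, lowest in HA1 replicate 3 and HA2 replicate 2 among the humic acid libraries. Besides both copies of that transporter these were a pair of SAG39 cysteine proteases (Rru02G042080, Rru02G042110), subtilisin-like protease 3 (Rru07G020650), serine carboxypeptidase 1 (Rru02G059650), a GDSL esterase/lipase (Rru02G012720) and umecyanin, a blue copper protein (Rru02G003520). The first SAG39 gene was at 0.127, 0 and 0 CPM in CK, against 29.3, 6.38 and 0.804 for HA1 and 11.2, 0.721 and 23.8 for HA2. Its values in HA1 replicate 3 and HA2 replicate 2 were far below those of the other humic acid libraries, and its log2 fold change was 7.91 ± 1.86. Leaving out 1 library moved it between 7.03 and 11.82, the latter again without CK replicate 1 and against 0 counts. In all 8 genes CK replicates 2 and 3 held 0 counts. The other 4 of the 12 were lowest in HA2 replicate 3 instead. They were the lipoxygenase LOX2-1 (Rru01G000790), carboxylesterase 15 (Rru07G002800), ERF110 (Rru06G026330) and a beta-amyrin 28-monooxygenase (Rru07G000460). ERF110, an ethylene-responsive transcription factor, was at 3.29, 49.7 and 4.16 CPM in CK, against 423, 491 and 782 for HA1 and 434, 364 and 53.6 for HA2. HA2 replicate 3 was just above CK replicate 2, the highest CK library, and the log2 fold change was 4.4 ± 1.13. Over the 12 genes the adjusted p ran from 0.0248 to 0.0485 with edgeR's quasi-likelihood test (Benjamini-Hochberg).

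**Figure D3:**
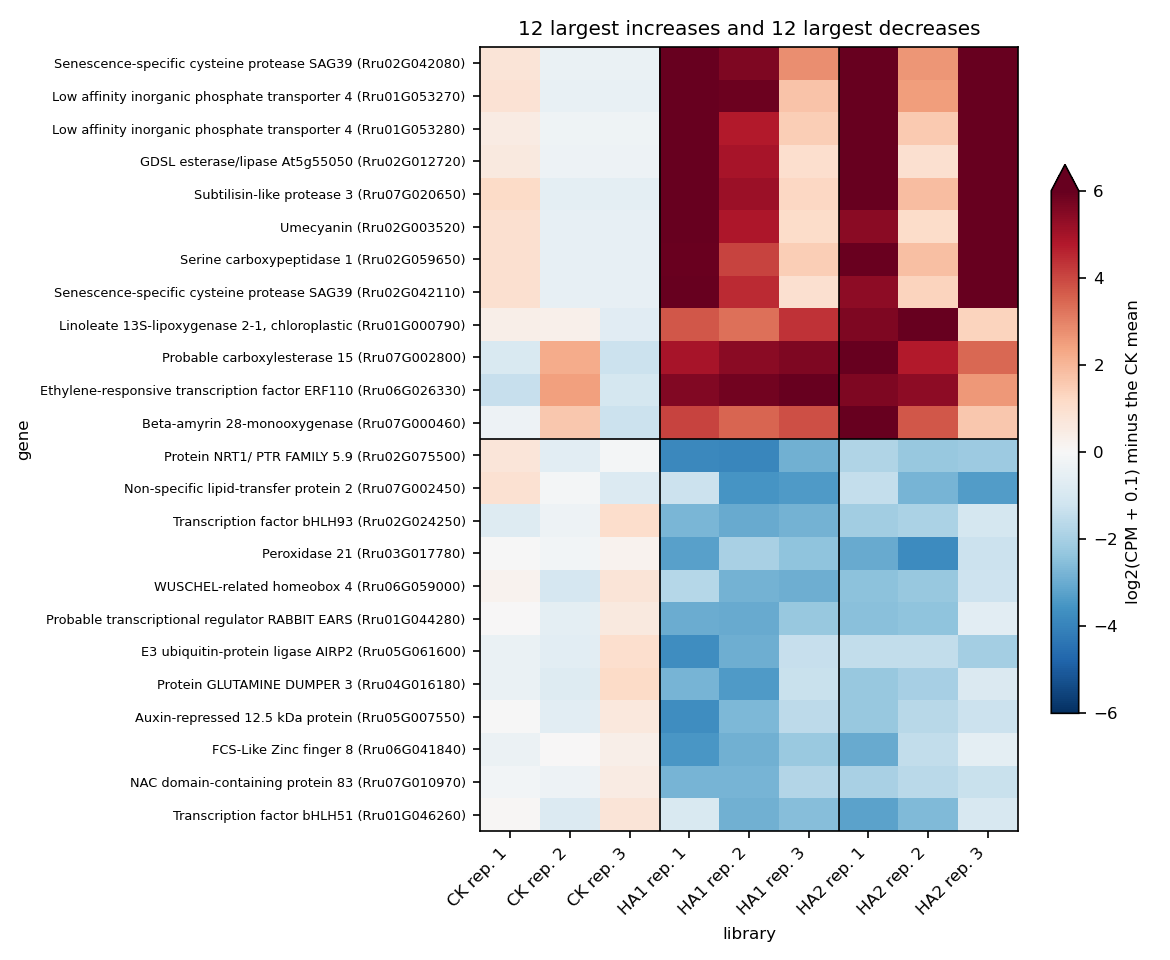
Level of the genes with the largest increases and decreases in each of the 9 libraries, as log2(CPM + 0.1) minus the CK mean, with the colour scale ending at 6. Genes such as phosphate transporter 4 and SAG39 come nearest to the CK level in HA1 replicate 3 and HA2 replicate 2, while LOX2-1 and ERF110 do so in HA2 replicate 3.

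In both the acid phosphatase and the phosphate transporter lists most genes did not pass. Purple acid phosphatases, which free phosphate from organic compounds, rose in 6 of 27 tested (22.2%, against 7.63% over all genes) and fell in 0. Their median log2 fold change was 0.78, or 0.44 to 0.83 when 1 library was left out. Under total count scaling 4 rose and the median was 0.43. The inactive purple acid phosphatase 27 (Rru07G011710) was at 0.616, 0.397 and 0.4 CPM in CK, against 1.53, 1.26 and 2.58 for HA1 and 7.92, 6.63 and 2.12 for HA2. All humic acid libraries lay above CK, and its log2 fold change was 2.73 ± 0.49. Purple acid phosphatase 20 (Rru03G021690) rose by 2.13 ± 0.40, although HA2 replicate 3 equalled CK replicate 1 at 1.63 CPM. Both had an adjusted p of 0.0212 by the quasi-likelihood test of edgeR (Benjamini-Hochberg).

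Phosphate transporters rose in 2 of 16 and fell in 1 (18.8% called, against 15.0% over all genes), and their median log2 fold change was 0.48. Those that rose were the copies of transporter 4 described above. The gene that fell, PHO1 homolog 1 (Rru04G046980), loads phosphate into the xylem in Arabidopsis. It was at 33.3, 17.2 and 29.6 CPM in CK, against 3.95, 6.5 and 8.61 for HA1 and 11.2, 13.6 and 22.2 for HA2, so only HA2 replicate 3 entered the CK range. Its log2 fold change was −1.42 ± 0.31, at an adjusted p of 0.0256 by edgeR's quasi-likelihood test (Benjamini-Hochberg). Transporter 1-4 (Rru06G039720) was looked at for its abundance. On the length-corrected FPKM scale it was at 61.0 ± 12.6 in CK, 66.1 ± 3.93 in HA1 and 78.9 ± 4.35 in HA2 (mean ± SD, n = 3 each). It did not pass, with an adjusted p of 0.101 by the same test. Another abundant gene described as transporter 1-4 (Rru04G006030) varied more between libraries. It was at 46.6 ± 22.9 in CK, 44.0 ± 36.5 in HA1 and 99.3 ± 56.5 in HA2, and did not pass in edgeR either. DESeq2 called 7 of the 16 phosphate transporters.

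SPX4 (Rru02G073540), of the family that holds back PHR factors when phosphate is ample, fell. Its CPM was 27.8, 21.9 and 38.8 in CK, against 8.97, 7.49 and 12.1 for HA1 and 11.7, 15.9 and 19.3 for HA2, with no overlap. The log2 fold change was −1.27 ± 0.23 and the adjusted p 0.0212 by edgeR's quasi-likelihood test (Benjamini-Hochberg). An SPX membrane protein (Rru01G030240) fell by 0.93 on the log2 scale, and the other 5 of 7 SPX genes did not pass, with a list median of 0.02. Among 31 genes of phospholipid and galactolipid remodelling 2 rose (6.45%, against 7.63% over all genes) and 0 fell. Those that rose were phospholipase D beta 1 (Rru07G020280, 1.17 ± 0.25) and a monogalactosyldiacylglycerol synthase (Rru06G050530, 2.92 ± 0.76), which makes a galactolipid of plastid membranes. The synthase was at 43.5, 101 and 24.3 CPM in CK and at 421 to 602 in all humic acid libraries except HA2 replicate 3, at 55.3.

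Jasmonate genes that changed mostly rose. Of 47 tested, 15 rose, 1 fell and 31 did not pass, or 16 of 47 called against 15.0% over all genes, and the median log2 fold change was 1.23, between 0.99 and 1.56 when 1 library was left out. Total count scaling gave 15 higher and 3 lower with a median of 0.97. At the first step, LOX2-1 (Rru01G000790) was at 5.44, 5.22 and 2.56 CPM in CK, against 56.1, 42.7 and 85.2 for HA1 and 207, 356 and 10.8 for HA2. It was lowest in HA2 replicate 3 and still above all CK libraries, and rose by 4.62 ± 0.98. Allene oxide synthase 1 (Rru06G051490), the next enzyme, was at 194, 220 and 128 CPM in CK, against 625, 1036 and 751 for HA1 and 702, 601 and 380 for HA2. It rose by 1.89 ± 0.30 with no overlap, at an adjusted p of 0.0197 by edgeR's quasi-likelihood test (Benjamini-Hochberg).

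Further genes of the pathway were chosen for description after their values were seen. Allene oxide cyclase (Rru04G046530) was at 88.3, 249 and 40.5 CPM in CK, against 1027, 1104 and 1041 for HA1 and 909, 863 and 242 for HA2. The first 5 humic acid libraries were above CK, HA2 replicate 3 was below CK replicate 2, and the log2 fold change was 2.74 ± 0.64. The log2 fold changes of 4 genes for 12-oxophytodienoate reductases 2 and 3 ran from 1.57 to 2.80 (Rru07G043490, Rru07G046730, Rru07G029490, Rru02G058730). The TIFY family includes the JAZ repressors, which jasmonate both degrades and induces. TIFY 6B (Rru07G001270) rose by 1.88 ± 0.33 and TIFY 10A (Rru02G010750) by 1.74 ± 0.44. TIFY 8 (Rru06G063110), a family member that is not a JAZ repressor and was named by the rule, fell by 1.07 on the log2 scale. Across the 47 genes the median of log2(CPM + 0.1) minus the mean of the 9 libraries was −0.55, −0.36 and −1.27 in CK, against 0.07, 0.22 and 0.60 for HA1 and 0.79, 0.75 and −0.32 for HA2. HA2 replicate 3 was just above CK replicate 2, and without it 25 of the genes rose.

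Cytokinin genes that changed were mostly lower. Of 43 tested, 9 fell, 1 rose and 33 did not pass (23.3% called), the median log2 fold change was −0.36, and total count scaling gave 20 lower and 0 higher. Those that fell spanned synthesis and signal transfer. Histidine-containing phosphotransfer protein 1 (Rru03G005130), which carries the signal to the nucleus, was at 18.8, 18.7 and 17.5 CPM in CK, against 6.53, 7.16 and 8.32 for HA1 and 11.9, 11.8 and 8.58 for HA2. The groups did not overlap, and it fell by 1.04 ± 0.15 on the log2 scale. The response regulator ORR4 (Rru01G007620) was at 7.24, 6.15 and 8.91 CPM in CK and at 2.58 to 3.92 in the humic acid libraries, with a log2 fold change of −1.27 ± 0.19. Both had an adjusted p of 0.0193 by edgeR's quasi-likelihood test (Benjamini-Hochberg). The isopentenyltransferases, which make cytokinin from adenylates, were looked at after their values were seen. IPT3 (Rru06G042660) fell by 2.03 ± 0.44 and IPT5 (Rru04G030720) by 2.92 ± 0.64. ABC transporter G14 (Rru06G055390), which exports cytokinin from the root in Arabidopsis, fell by 1.77 ± 0.33, from 40.8, 15.9 and 33.2 CPM in CK to between 4.45 and 21.5. HA2 replicate 3 was the humic acid library that entered the CK range. D3 cyclins are cell cycle activators that respond to cytokinin in Arabidopsis, and both genes named by the rule fell. Cyclin-D3-3 (Rru02G021220) had a log2 fold change of −1.21 ± 0.20 and cyclin-D3-1 (Rru06G009370) of −1.22 ± 0.21, both with no overlap. Over the whole cell cycle list of 133 genes 9 rose and 8 fell (12.8% called, against 15.0% over all genes).

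Gibberellin genes at opposite steps of the pathway rose together. Ent-kaurenoic acid oxidase 1 (Rru01G004210), an enzyme of gibberellin synthesis, was at 0.297, 0.17 and 0.188 CPM in CK, against 0.639, 1.05 and 0.459 for HA1 and 3.94, 6.38 and 1.58 for HA2, and rose by 2.92 ± 0.54. The enzyme that removes active gibberellin, 2-beta-dioxygenase 2 (Rru03G034020), was at 3.72, 17.8 and 3.9 CPM in CK, against 86.7, 94.1 and 105 for HA1 and 76.4, 57 and 28.5 for HA2, and rose by 3.08 ± 0.60. All 6 humic acid libraries were above CK for both genes, whose adjusted p was 0.0212 and 0.0217 by edgeR's quasi-likelihood test (Benjamini-Hochberg). Among the 28 genes of the list, 4 rose and 1 fell (17.9% called, against 15.0% over all genes). The others that rose were DELLA repressors of gibberellin signalling, GAIP-B (Rru04G053600, 1.05 ± 0.24) and DELLA protein 1 (Rru01G016880, 2.28 ± 0.50), and gibberellin-regulated protein 4 (Rru02G074000) fell by 1.67 on the log2 scale. These 3 were named after their values were seen.

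Strigolactones are root hormones that also attract mycorrhizal fungi. Of 12 genes tested, 3 fell and 1 rose (33.3% called, against 15.0% over all genes), and the median log2 fold change was −0.24. The receptor D14 (Rru02G006100) was at 8.73, 7.97 and 10.3 CPM in CK, against 2.26, 3.28 and 2.61 for HA1 and 4, 5.8 and 7.5 for HA2, and fell by 1.18 ± 0.23 on the log2 scale. SMAX1-LIKE 4 (Rru04G012370) is of a family of which only some members are repressors in this signalling. It was at 20.8, 10.2 and 21.8 CPM in CK and 1.89 to 8.82 in the humic acid libraries, and fell by 2.07 ± 0.33. Neither gene overlapped between the groups, and the adjusted p was 0.0217 and 0.0197 by edgeR's quasi-likelihood test (Benjamini-Hochberg). The remaining 2 were named after their values were seen. SMAX1-LIKE 7 (Rru05G062270) fell by 1.41 ± 0.32. The first enzyme of strigolactone synthesis, D27 (Rru06G041050), was at 0.17, 1.25 and 0.141 CPM in CK, against 2.08, 2.5 and 1.64 for HA1 and 19.4, 7.27 and 2.17 for HA2, and rose by 3.13 ± 0.90.

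Abscisic acid, auxin and ethylene genes were called at shares close to that of all genes. Of 25 abscisic acid genes 2 rose and 2 fell with a median of −0.18. The 2 that rose were both for the receptor PYL4 (Rru01G046650 and Rru03G012080), at 1.14 ± 0.27 and 1.19 ± 0.23 on the log2 scale. Of 92 auxin genes 3 rose (3.26%) and 10 fell (10.9%), 14.1% in all, with a median of −0.14. Over all genes 7.63% rose and 7.38% fell. Auxin transporter-like protein 2 (Rru06G002210), an uptake carrier, fell by 1.82 ± 0.37, and the membrane protein first found in auxin-treated root cultures, AIR12 (Rru06G035270), rose from 18.4, 21.1 and 12.4 CPM to between 29.9 and 98.9. Of 132 ethylene genes 12 rose and 11 fell (17.4% called), with a median of 0.37. The AP2-like factor CRL5 (Rru06G060500), which promotes crown root initiation in rice, was at 27.1, 27.1 and 18.1 CPM in CK and 6.43 to 14.4 in the humic acid libraries. It fell by 1.35 ± 0.18 on the log2 scale, with no overlap, at an adjusted p of 0.0181 by edgeR's quasi-likelihood test (Benjamini-Hochberg).

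Nitrogen transport genes that changed did so in both directions. Of 76 ammonium and nitrate transporters 11 rose and 7 fell (23.7% called), and the median log2 fold change was 0.11, which became −0.23 under total count scaling with 9 higher and 17 lower. The strongest fall of the list was that of NRT1/PTR family 5.9 (Rru02G075500), a member of the nitrate and peptide transporter family. It was at 8.32, 3.23 and 4.68 CPM in CK, against 0.251, 0.241 and 0.603 for HA1 and 1.36, 0.971 and 1.02 for HA2. All humic acid libraries lay below CK, and it fell by 3.08 ± 0.37 at an adjusted p of 0.0181 by edgeR's quasi-likelihood test (Benjamini-Hochberg). NRT1/PTR family 5.6 (Rru01G044700) fell by 1.71 ± 0.28. Among those that rose, seen after the fact, were the high-affinity nitrate transporters 2.1 (Rru05G050730, 1.19 ± 0.29) and 2.4 (Rru05G050760, 1.09 ± 0.29) and their partner proteins 3.1 (Rru07G013610, 0.90 ± 0.26) and 3.2 (Rru07G013590, 1.37 ± 0.34). Ammonium transporter 1 member 1 (Rru04G008850), also chosen after its values were seen, was at 62.9, 59 and 47.4 CPM in CK and 81.3 to 141 in the humic acid libraries, and rose by 1.04 ± 0.21. Of 18 nitrogen assimilation genes 0 rose and 2 fell (11.1% called, against 15.0% over all genes). Those that fell were NADH glutamate synthase 1 (Rru01G054150, −0.58 ± 0.17) and asparagine synthetase 2 (Rru02G028120, −0.66 ± 0.17). The call of glutamate synthase was lost with RLE size factors and with no filter on low counts.

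Citrate metabolism and metal handling each held strong single changes. Organic acid genes rose in 5 of 48 and fell in 3, close to the share over all genes. ATP-citrate synthase splits citrate in the cytosol into acetyl-CoA, a precursor of fatty acids and sterols. Its beta chain (Rru04G036720) was at 689, 1216 and 443 CPM in CK, against 2819, 4433 and 3737 for HA1 and 4561, 4837 and 1609 for HA2, and rose by 2.23 ± 0.47 with no overlap, at an adjusted p of 0.0248 by edgeR's quasi-likelihood test (Benjamini-Hochberg). The alpha chain (Rru04G052080), looked at afterwards, rose by 2.02 ± 0.51. Among 77 metal handling genes 5 rose and 8 fell (16.9% called, against 15.0% over all genes), with a median of −0.34. Nicotianamine synthase (Rru03G008300), which makes a chelator of iron and zinc, was at 38.4, 38.5 and 20.8 CPM in CK and 5.48 to 11.3 in the humic acid libraries. It fell by 2.07 ± 0.23 and its adjusted p was 0.0167. Zinc transporter 6 (Rru05G062860) rose by 1.28 ± 0.17, from 22.8 to 25 CPM in CK to at least 45.2 in each humic acid library. Zinc transporter 1 (Rru05G017820), chosen after its values were seen, fell by 3.04 ± 0.55, with HA2 replicate 3 at 2.34 CPM and CK replicate 3 at 2.19. Of 14 plasma membrane proton pumps 1 rose (7.14%, against 7.63% over all genes) and 0 fell. ATPase 4 (Rru04G013700) rose by 0.65 ± 0.17, and with total count scaling or with no filter on low counts it did not pass.

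Starch synthesis genes that changed were all lower. Of 18 tested, 5 fell, 0 rose and 13 did not pass (27.8% called), the median log2 fold change was −0.47, and under total count scaling 8 fell and 0 rose. Isoamylase 2 (Rru06G042810), a subunit of the enzyme that trims growing starch, was at 18.6, 6.24 and 23.8 CPM in CK, against 5.48, 4.09 and 4.19 for HA1 and 4.84, 5.66 and 4.97 for HA2. CK replicate 2 was only slightly above the humic acid libraries, and the log2 fold change was −1.74 ± 0.34, at an adjusted p of 0.0217 by edgeR's quasi-likelihood test (Benjamini-Hochberg). Both genes for starch synthase 4, which starts starch granules, fell, by 0.72 ± 0.16 (Rru02G023990) and by 0.97 ± 0.24 (Rru05G011500). For Rru02G023990, HA2 replicate 3 at 24.6 CPM was just above CK replicate 2 at 24.3. The branching enzyme (Rru06G055290) and the small subunit of ADP-glucose pyrophosphorylase (Rru02G063190), which supplies ADP-glucose, were the other 2, with log2 fold changes of −1.24 and −1.23, and like the second starch synthase were named after their values were seen. In both, CK replicate 2 was the lowest CK library and HA2 replicate 3, the highest humic acid library, lay above it. Among 55 sugar transport and sucrose cleavage genes 3 rose and 6 fell (16.4% called, against 15.0% over all genes). SWEET17 (Rru01G023810), a vacuolar fructose transporter in Arabidopsis, went from 10.7, 8.11 and 7.64 CPM in CK to between 1.78 and 5.05.

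The terpenoid list moved both ways. Of 82 terpenoid and sterol genes 13 rose and 6 fell (23.2% called), with a median of 0.21, or −0.08 under total count scaling. Beta-amyrin synthase forms the triterpene skeleton beta-amyrin, and beta-amyrin 28-monooxygenase oxidises it to oleanolic acid. By the rule, the 28-monooxygenases Rru01G033130 and Rru05G031970 were named, and they rose by 3.25 ± 0.57 and 1.93 ± 0.34 with no overlap, both at an adjusted p of 0.0212 by edgeR's quasi-likelihood test (Benjamini-Hochberg). The former was at 0.531, 0.68 and 0.47 CPM in CK, against 3.01, 4.97 and 5.37 for HA1 and 12.6, 4.33 and 2.36 for HA2. More abundant genes of the route were looked at afterwards. A beta-amyrin synthase (Rru02G057740) was at 1939, 4322 and 1148 CPM in CK, against 5853, 8562 and 6888 for HA1 and 6589, 6865 and 5422 for HA2, and rose by 1.44 ± 0.42. Another 28-monooxygenase (Rru04G000360) rose by 1.33 ± 0.30, from 1851 to 3716 CPM in CK to at least 5376 in each humic acid library. Upstream, farnesyl pyrophosphate synthase 1 (Rru05G000330) rose by 2.63 ± 0.64, with HA2 replicate 3 at 317 CPM inside the CK range and the other 5 libraries at 1331 to 1476. Others of the 28-monooxygenases, also looked at afterwards, fell, Rru01G008880 by 1.40 and Rru01G008760 by 1.29 on the log2 scale.

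Phenolic genes changed in both directions. Lignin and phenylpropanoid genes rose in 8 of 122 and fell in 8 (13.1% called). Both copies of the cinnamoyl-CoA reductase-like SNL6, of a family that leads to lignin monomers, fell. The more abundant one (Rru07G028350) was at 125, 58.2 and 119 CPM in CK, against 17.6, 20.5 and 21.5 for HA1 and 36.8, 24.7 and 48.3 for HA2, and its log2 fold change was −1.90 ± 0.27, at an adjusted p of 0.0181 by edgeR's quasi-likelihood test (Benjamini-Hochberg). Flavonoid genes rose in 6 of 68 and fell in 8 (20.6% called), with a median of −0.36. A pair of flavonoid 3-O-glucosyltransferases described as number 7 rose, by 2.26 ± 0.36 (Rru06G009840) and 1.59 ± 0.30 (Rru06G009860). MYB123 (Rru06G055700), which in Arabidopsis turns on proanthocyanidin synthesis in the seed coat, was at 53.3, 69.4 and 51.8 CPM in CK, against 15, 11.4 and 11.2 for HA1 and 30.9, 33.1 and 25.9 for HA2. The 3 groups did not overlap, and it fell by 1.58 ± 0.16, at an adjusted p of 0.0167.

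Chaperones, calcium signalling and redox genes gave a mixed picture. Heat shock proteins and factors rose in 12 of 85 and fell in 5 (20.0% called). HSP70 number 1 (Rru03G015990), a cytosolic chaperone, was at 1571, 1899 and 1210 CPM in CK, against 7096, 6693 and 6296 for HA1 and 4060, 3797 and 3059 for HA2. All 3 HA1 libraries were above all HA2 libraries, which were above all CK libraries, and the log2 fold change was 1.66 ± 0.25, at an adjusted p of 0.0193 by edgeR's quasi-likelihood test (Benjamini-Hochberg). HSP70 number 4 (Rru01G042900) followed the same order, with a log2 fold change of 1.45 ± 0.19. Calcium pumps and sensors rose in 32 of 191 and fell in 19 (26.7% called), and total count scaling gave 23 higher and 37 lower. Calmodulin-2 (Rru03G003710), a calcium sensor, was at 2.36, 2.52 and 1.95 CPM in CK, against 10.5, 10.8 and 10.7 for HA1 and 7.45, 4.58 and 3.9 for HA2, and rose by 1.72 ± 0.25. A group of 3 genes described as plasma membrane calcium ATPase 13 (Rru04G002740, Rru04G002810, Rru04G002850), chosen afterwards, rose by 2.30 to 2.49. So did the calcium- and calmodulin-dependent kinase of root symbiosis (Rru07G035130), by 1.11 ± 0.29. Peroxidases and antioxidant enzymes rose in 3 of 104 and fell in 9, and peroxidase 21 (Rru03G017780) went from 46.2, 42 and 55.9 CPM in CK to between 3.38 and 19.3. Glutathione S-transferases fell in 6 of 57 (10.5%) and rose in 0, against 7.38% that fell and 7.63% that rose over all genes.

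Cell wall and endodermal genes that changed did so in both directions. Wall remodelling genes rose in 9 of 130 (6.92%) and fell in 12 (9.23%), 16.2% in all, close to the 15.0% over all genes. The leucine-rich repeat extensin-like protein 4 (Rru02G005990), a wall-bound protein, was at 214, 303 and 187 CPM in CK and 475 to 790 in the humic acid libraries, and rose by 1.47 ± 0.25. Pectinesterase 51 (Rru02G033470), which modifies pectin, rose by 1.45 ± 0.24, also with no overlap. Among 53 endodermal barrier and suberin genes 4 rose and 7 fell (20.8% called). Of the 4 that rose, 3 were the RAM2 copies described with the mycorrhiza genes, which are acyltransferases by name. A pair of CASP-like membrane proteins named by the rule fell, 2B1 (Rru05G000730) from 52.9, 41.6 and 44.2 CPM in CK to between 15 and 26.3 and 5B2 (Rru01G044480) from 9.77, 11.7 and 12.3 to between 3.85 and 6.3. The log2 fold change of 2B1 was −1.19 ± 0.13, at an adjusted p of 0.0167 by edgeR's quasi-likelihood test (Benjamini-Hochberg). Cytosolic ribosomal proteins were called in 3 of 189, or 1.59% against 15.0% over all genes.

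Transcription factor families differed in how many members changed, beside 15.0% called over all genes. bHLH factors had the highest share of these families, with 10 that rose and 13 that fell of 63 (36.5% called). bHLH93 (Rru02G024250) was at 10.5, 14.6 and 36.5 CPM in CK, against 2.56, 2.11 and 2.41 for HA1 and 4.09, 4.63 and 8.4 for HA2, and its log2 fold change was −2.48 ± 0.38, at an adjusted p of 0.0193 by edgeR's quasi-likelihood test (Benjamini-Hochberg). NAC factors rose in 4 of 60 and fell in 11 (25.0% called), with a median of −0.48. NAC83 (Rru07G010970), which restrains xylem vessel formation in Arabidopsis, fell by 2.11 ± 0.32, and NAC87 (Rru03G044030), which acts in the death of root cap cells in Arabidopsis, rose by 1.18 ± 0.19. WRKY factors rose in 5 of 58 and fell in 3 (13.8% called), near the share over all genes. WRKY70 (Rru03G010860), which joins salicylate and jasmonate responses in Arabidopsis, was at 1.76, 3.09 and 1.67 CPM in CK, against 7.92, 19.8 and 20.1 for HA1 and 32, 13.2 and 12.7 for HA2, and rose by 3.01 ± 0.48. WRKY6 (Rru02G066440), which represses PHO1 in Arabidopsis, rose by 1.36 ± 0.23, from 41.1 to 80.2 CPM in CK to at least 112 in each humic acid library. MYB factors rose in 2 of 76 and fell in 7 (11.8% called).

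The 12 genes with the largest decreases, picked in the same way, held several regulators. They included bHLH93, NAC83, peroxidase 21 and NRT1/PTR 5.9, given above. WUSCHEL-related homeobox 4 (Rru06G059000), which keeps the vascular cambium dividing in Arabidopsis, was at 9.24, 3.97 and 13.7 CPM in CK, against 2.33, 1.02 and 0.947 for HA1 and 1.36, 1.55 and 3.34 for HA2. HA2 replicate 3 was the humic acid library nearest to CK, and the log2 fold change was −2.37 ± 0.45. RABBIT EARS (Rru01G044280), a zinc finger protein of petal development in Arabidopsis, fell by 2.27 ± 0.44, with HA2 replicate 3 at 7.28 CPM just under CK replicate 2 at 7.43. The auxin-repressed 12.5 kDa protein (Rru05G007550), the most abundant of the 12, was at 748, 502 and 1209 CPM in CK, against 57.8, 119 and 256 for HA1 and 159, 242 and 312 for HA2, and fell by 2.15 ± 0.44. The remaining 5 were lipid-transfer protein 2 (Rru07G002450), the ubiquitin ligase AIRP2 (Rru05G061600), glutamine dumper 3 (Rru04G016180), FCS-like zinc finger 8 (Rru06G041840) and bHLH51 (Rru01G046260), with log2 fold changes of −2.10 to −2.54. Over the 12 genes the adjusted p ran from 0.0181 to 0.0479 with edgeR's quasi-likelihood test (Benjamini-Hochberg).

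Disease resistance proteins and receptor kinases were called at shares close to that of all genes. Of 592 disease resistance proteins, the intracellular receptors of pathogen molecules, 64 rose (10.8%) and 28 fell (4.73%), 15.5% in all. Over all genes 7.63% rose and 7.38% fell. TMV resistance protein N (Rru06G020410) was at 29.7, 33.9 and 25.4 CPM in CK and 46.3 to 112 in the humic acid libraries, and rose by 1.47 ± 0.20. Of 648 receptor kinases 65 rose and 44 fell (16.8% called). The inactive receptor kinase described as At2g26730 (Rru02G076220) was at 0.446, 0.709 and 0.588 CPM in CK, against 3.45, 5.18 and 2.78 for HA1 and 7.6, 5.41 and 7.84 for HA2. Every humic acid library, HA2 replicate 3 included, was well above CK, and the gene rose by 3.15 ± 0.32 at an adjusted p of 0.0167 by edgeR's quasi-likelihood test (Benjamini-Hochberg). FEI 1 (Rru07G003530), a receptor kinase of cell wall function in Arabidopsis roots, fell by 1.69 ± 0.27. Pathogenesis-related proteins and chitinases rose in 11 of 98 and fell in 10 (21.4% called). Secreted and vacuolar proteases rose in 18 of 151 and fell in 5 (15.2% called, against 15.0% over all genes). UDP-glycosyltransferases, which attach sugars to small molecules, rose in 11 of 92 and fell in 3 (15.2% called). UGT83A1 (Rru02G072320) rose by 2.58 ± 0.40 and UGT87A1 (Rru05G063770) by 1.31 ± 0.20, with no overlap for either. The level of UGT83A1 was low, at 0.127, 0.17 and 0.0706 CPM in CK and 0.301 to 1.83 in the humic acid libraries. In CK replicate 3 it was at the floor of 3 counts, so the size of its fold is uncertain.

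**Figure D4:**
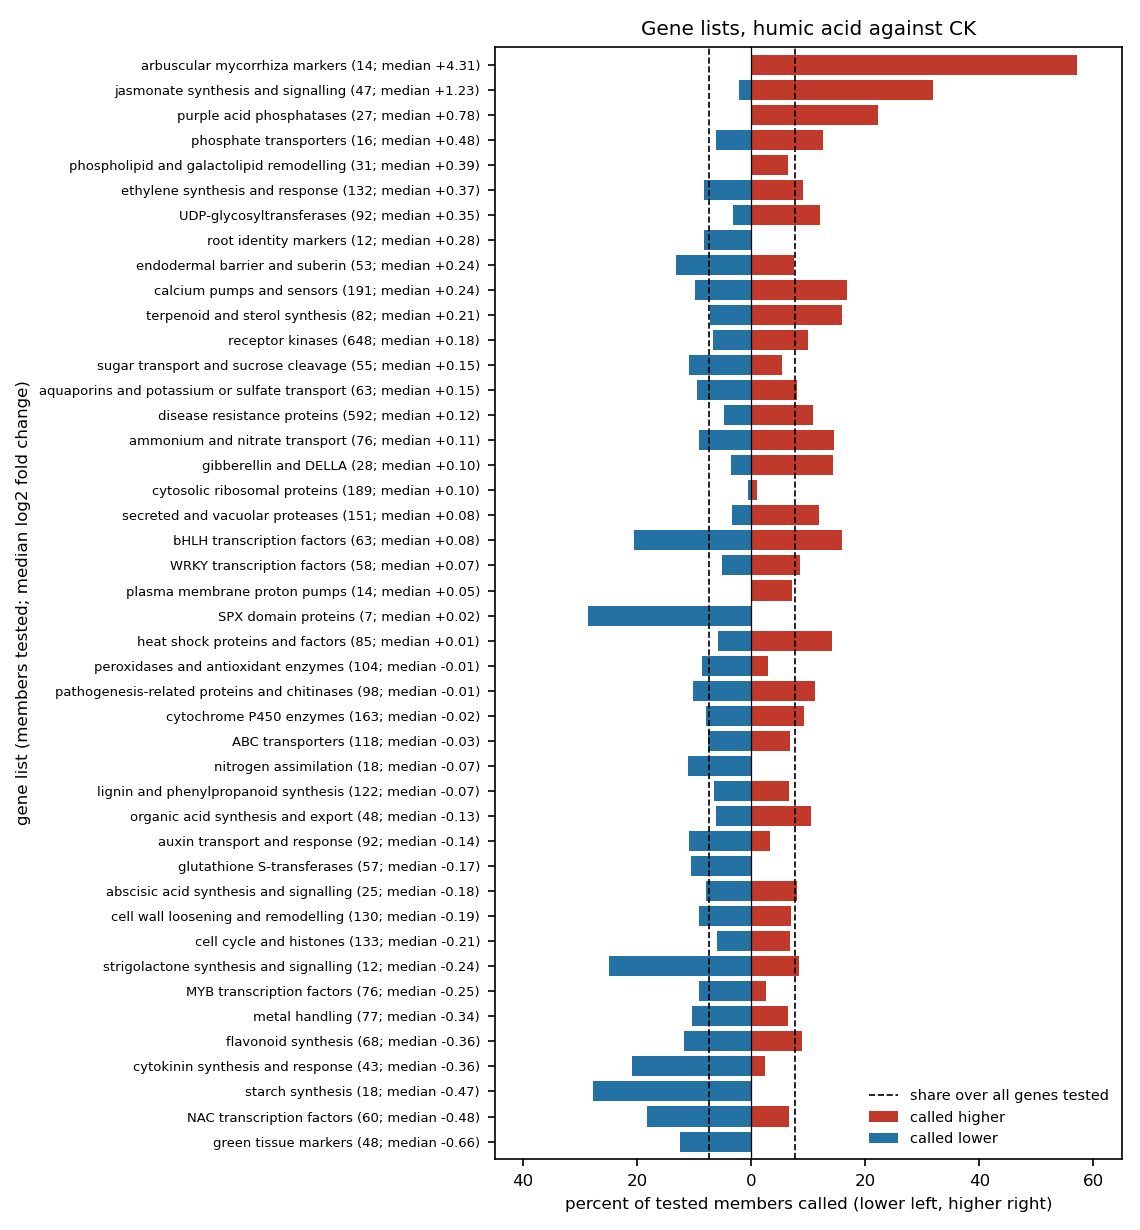
Percent of tested genes called higher (bars to the right) and lower (bars to the left) in each of the 44 gene lists, ordered by median log2 fold change, with dashed lines at the shares over all genes, 7.63% higher and 7.38% lower. The mycorrhiza and jasmonate lists have the longest bars to the right, and the starch list is among several with no bar to the right.

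The lists also differed in which libraries carried the difference. For the mycorrhiza genes the library medians, as log2(CPM + 0.1) minus the mean of the 9 libraries, were −1.48, −2.0 and −1.42 in CK, against 2.34, 1.11 and −1.22 for HA1 and 0.85, −0.83 and 3.38 for HA2. HA2 replicate 3 had the highest of all, and HA1 replicate 3 was the lowest humic acid library. For jasmonate and starch genes HA2 replicate 3 was instead the humic acid library nearest to CK. For the starch genes its median of 0.38 lay within the CK range, at 0.52, −0.01 and 0.61.

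**Figure D5:**
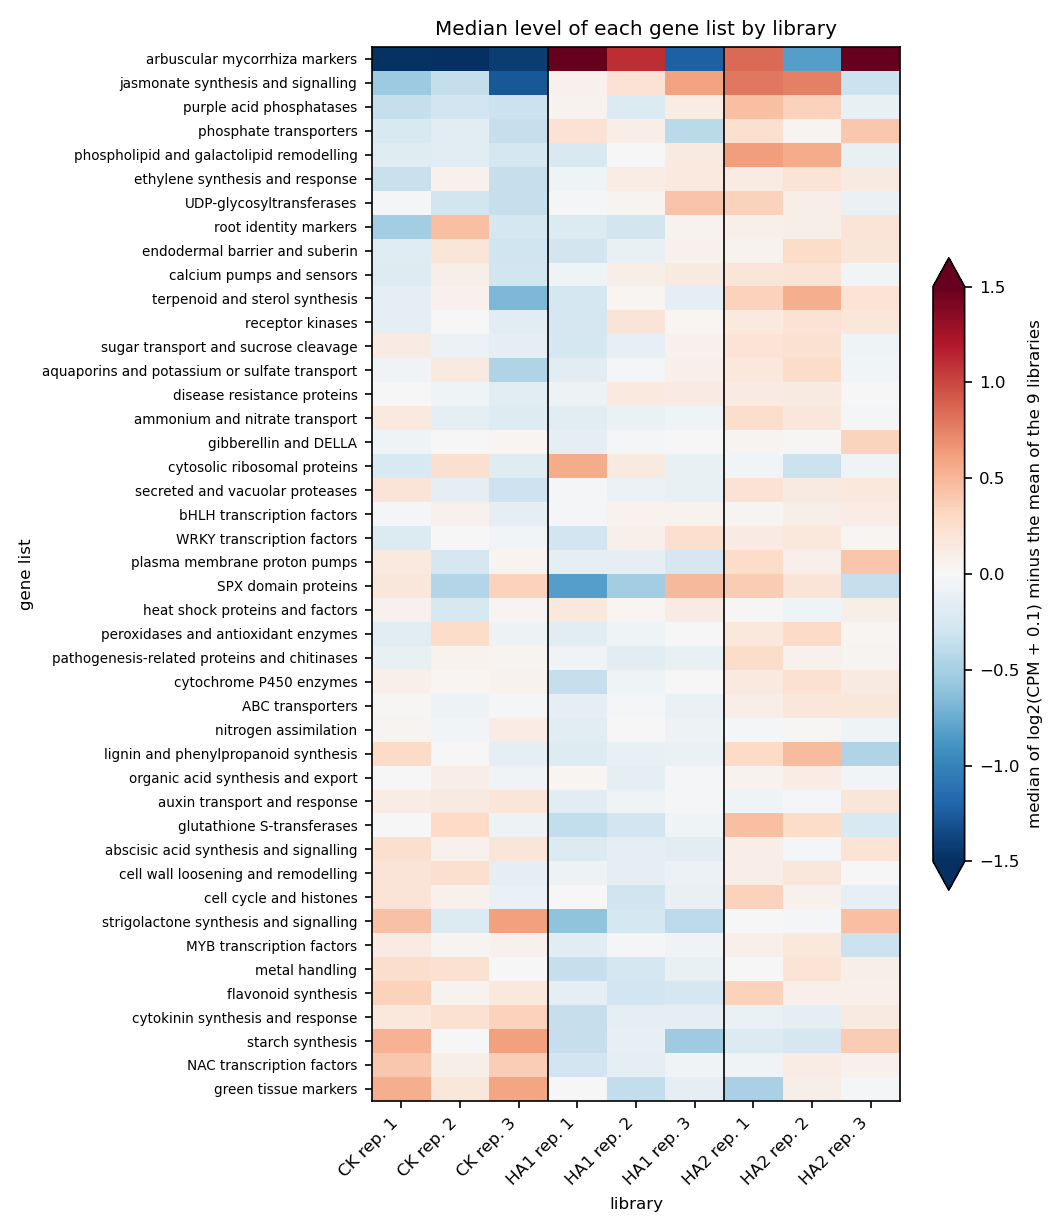
Median of log2(CPM + 0.1) minus the mean of the 9 libraries for the genes of each list in each library, with the colour scale ending at 1.5. The mycorrhiza list is highest in HA2 replicate 3, at 3.38, and the jasmonate list is highest in HA2 replicates 1 and 2, at 0.79 and 0.75.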

How the data were processed

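Poly(A) RNA of 9 root libraries, 3 per group, was sequenced in pairs on an Illumina NovaSeq instrument and analysed on the Biocloud platform, per the labels' protocols. Not given in the sources used here are the tools that aligned and counted the reads, the build and the strand setting. The deposited table holds 1 raw count column and 1 FPKM column per library, per the file headers, and a Swiss-Prot description for 23524 of 47983 genes. Of the gene IDs, 3897 are named NewGene, 13758 genes had 0 counts in every library, and 0 IDs matched the RefSeq gene table, so no coordinates or sequences are printed. FPKM values were used as the authors deposited them, for phosphate transporters only.

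Counts were filtered with filterByExpr, scaled by TMM and fitted in edgeR 4.0.16 (limma 3.58.1, R 4.3.3) with glmQLFit and glmQLFTest, with 1 mean per group and no covariate. The contrast was the mean of HA1 and HA2 minus CK, two-sided, with Benjamini-Hochberg adjustment over all genes tested at 0.05. Standard errors are the log2 fold change divided by the root of the F statistic. The procedure was tested on simulated data. Python 3.11.15, pandas 2.3.3, numpy 2.4.6 and matplotlib 3.10.9 served for summaries and plots. DESeq2 1.42.0, other scalings and filters, a replicate block and leaving out each library were alternatives, and the DESeq2 fits without 1 library were added after seeing the data. Whether replicate numbers pair libraries was not settled. Of 9 same-numbered pairs, 3 had correlated deviations over 0.1, the 3 between CK and HA2 (0.12, 0.11 and 0.32). No pair with HA1 did, and the pooled comparison was not blocked. Any 2 replicates of a group differed by more than counting noise.

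The 44 gene lists were drawn by words in the descriptions. The lists and the comparison were chosen with earlier results of these data known, so their counts are not independent evidence. The rule for named genes took the 12 largest increases and decreases among called, described genes that averaged at least 5 CPM in the higher arm and had no overlap between humic acid and CK libraries, and the 2 genes of lowest p in each list. It gave 107 genes, of which 105 were called, and genes named outside it are marked as such.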

Additional observations from a re-analysis of the deposited data

How the results depend on the processing

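The pooled comparison gave 3791 calls (1927 higher, 1864 lower). Total count scaling gave 6069 (1241 higher, 4828 lower), DESeq2 6761 (3774 higher, 2987 lower), and a single mean for all 6 humic acid libraries 1696 (967 higher, 729 lower). At an adjusted p under 0.01 edgeR called 0 genes, with 8729 at an unadjusted p under 0.05, and a fold minimum of 1 on the log2 scale left 2300 (1139 higher, 1161 lower). Leaving out 1 library moved the edgeR count between 0 and 6528 (higher 0 to 3160, lower 0 to 3368) and the DESeq2 count between 3075 and 8544 (higher 2054 to 4490, lower 1021 to 4110). For HA2 against HA1 edgeR called 0 genes in each fit that tested it and DESeq2 called 1141, or 192 to 1587 without 1 library. RLE size factors (3796), no filter on low counts (3312) and a filter of 1 CPM in 3 libraries (4220) stayed within 1.5 times the count. With the replicate block 3690 genes were called. Whether the numbers pair the libraries was not settled, and 3 of 9 libraries correlated best with one of their own number. Under the block 8 named genes no longer passed: an SPX membrane protein, glutamate synthase 1, asparagine synthetase 2, umecyanin, the GDSL esterase/lipase, subtilisin-like protease 3 and single copies of SAG39 and of beta-amyrin 28-monooxygenase. No named gene changed sign under any setting. With the single mean, 24 of the named genes no longer passed, among them PHO1 homolog 1, D14, TIFY 8, kaurenoic acid oxidase 1 and ammonium transporter 3 member 1. The cause of these shifts was not tested. The floor of 3 counts, at most 0.0903 CPM, limits what can be said of genes near 0 in CK.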

Other observations

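Gene families outside the comparisons above were called at shares close to the 15.0% over all genes, and single members are described. Among 163 cytochrome P450 genes, which oxidise hormones and specialised metabolites, 15 rose and 13 fell (17.2% called). P450 72A15 (Rru05G022690) was at 24.9, 34 and 45.6 CPM in CK and 6.87 to 16 in the humic acid libraries, with no overlap, and its log2 fold change was −1.84 ± 0.24. P450 76A2 (Rru03G020470) rose by 0.86 ± 0.15, from 9.67 to 10.7 CPM in CK to at least 15.1. Of 63 aquaporins and potassium or sulfate transporters 5 rose and 6 fell (17.5% called). Aquaporin NIP6-1 (Rru02G045450), a boric acid channel in Arabidopsis, was at 8.92, 4.65 and 5.97 CPM in CK, against 1.94, 2.11 and 1.03 for HA1 and 3.16, 3.05 and 3.58 for HA2, and fell by 1.47 ± 0.28, while aquaporin SIP2-1 (Rru02G034990) rose by 0.97 ± 0.19. Of 118 ABC transporters 8 rose and 9 fell (14.4% called). ABC transporter F4 (Rru02G058570) rose by 0.77 ± 0.13 and did not pass with total count scaling, where its log2 fold change was 0.48. MYBC1 (Rru02G038360) was at 17.3, 16.1 and 16.4 CPM in CK, against 51.7, 42.3 and 42.9 for HA1 and 26.8, 23.6 and 22.4 for HA2. The 3 groups did not overlap, and it rose by 1.00 ± 0.14, at an adjusted p of 0.0181 by edgeR's quasi-likelihood test (Benjamini-Hochberg).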
